A study of Mus musculus with 2 samples.

Results

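The 40 genes described here carry out or govern S phase, the part of the cell cycle in which DNA is copied. They are 40 of the 33456 genes counted in each of 2 single-cell RNA libraries of mouse yolk sac, and were found by their gene symbols, each of which matched 1 row of both gene tables. The rule that chose them uses no measured value. The study compared the B6 strain with wild-type Baf155 (WT, 1 library) and Baf155 CKO yolk sac of the same strain (CKO, 1 library). Baf155 is the protein of Smarcc1, a core subunit of the BAF chromatin remodelling complexes. Each library pooled yolk sacs from equal numbers of embryos of E9.5 and E10.5, which were dissociated, frozen, thawed, sorted to remove dead cells and Ter119+ red cells, and run on the 10x Genomics Chromium. The sources used here do not give how many embryos were pooled, which Cre line was used or which part of the gene it removes. Which of the 2 stages a cell came from is unknown, and the labels speak of nuclei where the protocol describes sorted cells. Because each genotype has 1 library, genotypes cannot be tested against each other. Values are therefore given side by side. The 95% intervals of levels and ratios cover counting error only, and embryo, pool, stage and handling cannot be told apart from genotype.

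DNA copying starts when the origin recognition complex, CDC6 and CDT1 load the MCM helicase onto origins in G1, a step that geminin blocks once S phase has begun. The loaded helicase is switched on with CDC45 and the GINS complex, primed by the DNA polymerase alpha and primase complex, and extended by polymerases held on the DNA by the PCNA clamp. Copying also needs deoxynucleotides from ribonucleotide reductase and thymidylate synthase, and histones and chromatin factors to rebuild chromatin behind the fork. Many of these genes are transcribed together under E2F factors as cells pass from G1 into S. In the yolk sac of these stages, blood cells, vessel lining and supporting tissue all divide.

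Most of the promoters found for these genes hold sequence motifs that the list's definition did not use. RefSeq promoter windows from 250 bases before to 50 bases after the gene start (GRCm38.p6) were found for 30 of the 40 genes. The search looked on both strands for the E2F core as TTCCCGC, with the form TTGGCGC, with the form TTCGCGC or with the form TTGCCGC, which can overlap one another, and for CCAAT, the NF-Y motif. An E2F core stood in 22 of the 30 windows (73.3%), against 10.9% of 27018 gene windows of the same length. CCAAT stood in 21 of them (70.0%), against 41.1%. Both motifs were present in 16 windows (53.3%), against 4.85% of all windows. The 46 windows found for other replication genes held an E2F core in 60.9%, and the 46 windows of G2 and mitosis genes in 21.7%, although CCAAT reached 76.1% in the latter. A match is a run of letters and not a shown binding site, and 300-base windows of these genes also held more CpG (median 23.5) than those of all genes (median 8). The 200 bases before the start are shown for 5 members whose values are given below, with E2F core and CCAAT matches (ATTGG on the other strand) in capitals. No GENCODE exon overlaps any of these stretches. Mcm5 and Mcm6 are helicase subunits, Pola1 is the catalytic subunit of the priming polymerase, Rrm1 is the large subunit of ribonucleotide reductase, and Nasp is a histone chaperone whose stretch holds CCAAT but none of the E2F core forms searched.
Mcm5, chr8:75109309-75109508, + strand: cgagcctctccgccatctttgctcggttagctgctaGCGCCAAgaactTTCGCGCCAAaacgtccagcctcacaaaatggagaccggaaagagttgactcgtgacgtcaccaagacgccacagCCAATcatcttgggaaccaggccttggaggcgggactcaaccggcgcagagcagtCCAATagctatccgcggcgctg
Mcm6, chr1:128359706-128359905, - strand: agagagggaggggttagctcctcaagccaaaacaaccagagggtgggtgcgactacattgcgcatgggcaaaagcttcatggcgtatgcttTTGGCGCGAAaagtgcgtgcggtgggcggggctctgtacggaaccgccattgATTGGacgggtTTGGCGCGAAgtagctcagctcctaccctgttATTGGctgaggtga
Pola1, chrX:93632156-93632355, - strand: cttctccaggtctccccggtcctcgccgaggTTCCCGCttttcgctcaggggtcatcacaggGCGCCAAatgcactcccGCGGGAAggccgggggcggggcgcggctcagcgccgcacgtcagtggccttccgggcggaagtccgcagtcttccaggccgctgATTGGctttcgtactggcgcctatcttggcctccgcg
Rrm1, chr7:102441495-102441694, + strand: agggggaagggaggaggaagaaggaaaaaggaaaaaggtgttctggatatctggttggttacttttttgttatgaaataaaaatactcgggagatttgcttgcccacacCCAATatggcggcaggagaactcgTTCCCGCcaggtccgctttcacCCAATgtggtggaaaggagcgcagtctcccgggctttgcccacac
Nasp, chr4:116627952-116628151, - strand: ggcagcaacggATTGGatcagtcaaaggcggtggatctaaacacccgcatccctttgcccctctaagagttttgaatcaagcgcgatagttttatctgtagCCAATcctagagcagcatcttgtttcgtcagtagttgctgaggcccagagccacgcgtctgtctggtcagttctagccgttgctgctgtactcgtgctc

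The WT library held 815 barcodes and the CKO library 865, with medians of 27249 and 27882 UMIs (unique molecular identifiers, each 1 counted RNA molecule) per barcode. Levels are in CPM, the UMIs of a gene or list as counts-per-million of all UMIs of the cells summed. After filtering, 784 WT and 841 CKO cells remained. Smarcc1, the targeted gene, was at 94.9 CPM in WT and 24.0 in CKO over all kept cells. It was lower in CKO in progenitor-like (115 and 35.4), stromal-like (96.2 and 29.9) and erythroid cells of lower globin share (70.2 and 7.66), but the 14 macrophage-like cells of the CKO library held 85.0 CPM against 82.0 in WT. Cells were put into classes by marker genes that include none of the 40: erythroid by a globin share of at least 5% of UMIs, with the globin-rich class from 30%, and the others by at least 5 markers of their list (3 for progenitors) with 2 or more UMIs each. The list for progenitors pooled progenitor, granulocyte-monocyte and early erythroid markers, so the class mixes these lineages by construction. Cells passing no gate or conflicting gates (45 WT and 38 CKO) were left out. The compared classes each had at least 20 cells in both libraries. Endothelium-like cells held 5637 and 4689 endothelial marker CPM in WT and CKO, and stromal-like cells 10008 and 11784 mesenchyme marker CPM. The gates required these same markers, so these levels follow from the gates and are no check of the class names. Globin in stromal-like cells, which do not make it, was 0.0338% of UMIs in WT and 0.236% in CKO. Whether this globin came from free red cell RNA, and its part in the results below, were not tested.

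In WT, the summed level of the 40 genes per all UMIs was highest in progenitor-like, macrophage-like and megakaryocyte-like cells. It was lowest in globin-rich red cells, whose place in the order rests on globin being in the total. The 200 progenitor-like cells held 4127 CPM (4083 to 4172), the 43 macrophage-like cells 4120 (4015 to 4228) and the 9 megakaryocyte-like cells 4214 (4026 to 4408), 3 values that counting error does not separate. Below them came 14 cells that passed the progenitor and the endothelium gates together at 3637, stromal-like cells at 3195, endothelium-like cells at 2593, endoderm-like cells at 2234, erythroid cells of lower globin share at 2064 (2002 to 2127) and globin-rich erythroid cells at 1789 (1745 to 1835). The spread over cells was wider than these steps: the middle 50% of WT stromal-like cells ran from 2058 to 4295 CPM. In CKO the order differed: progenitor-like cells were again highest at 3507, but erythroid cells of lower globin share, at 2927, stood above endothelium-like (2763) and stromal-like cells (2458). Globin takes a large share of red cell RNA, and with globin UMIs left out of the total the erythroid cells of lower globin share held 2800 in WT and 3827 in CKO, the latter above the 3516 of CKO progenitor-like cells on that scale. WT globin-rich cells then held 2744, above endothelium-like (2594) and endoderm-like cells (2235). By gene and per all UMIs, 30 of the 40 had their highest WT level in progenitor-like cells among the 5 compared classes, and 25 their lowest in globin-rich erythroid cells. Hells, a chromatin remodeller needed for DNA methylation, had the widest WT range, from 193 CPM in progenitor-like to 11.9 in globin-rich cells. Tyms, thymidylate synthase, had the narrowest, from 189 in stromal-like to 148 in globin-rich cells. Levels of different genes are not compared with each other here because the counts are not per length.

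**Figure D1:**
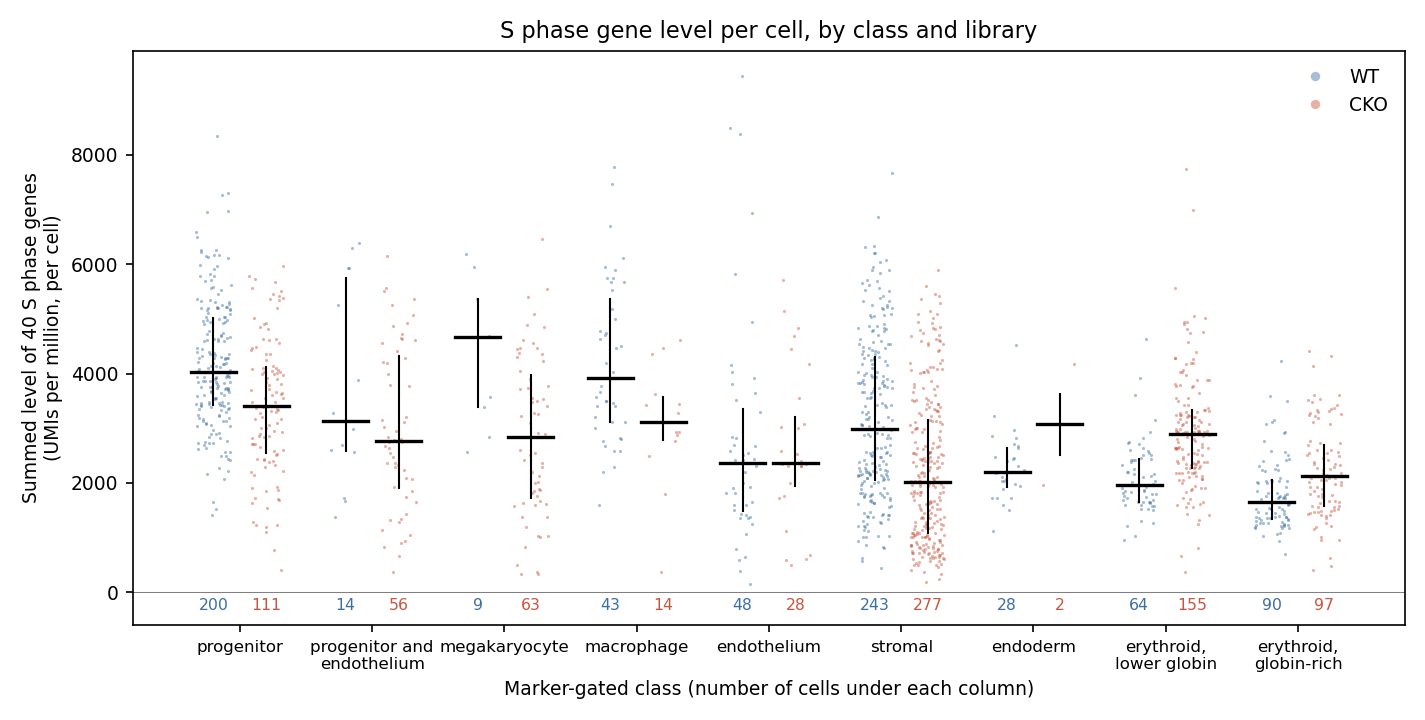
Summed level of the 40 S phase genes in each kept cell (CPM of the cell's UMIs, vertical axis) by marker-gated class, WT in blue and CKO in red, with the median (thick bar), the middle 50% of cells (thin line) and the number of cells under each column. CKO medians lie below WT in progenitor-like (3404 and 4030) and stromal-like cells (2013 and 2993) and above WT in erythroid cells of lower globin share (2893 and 1963).

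Progenitor-like cells of the CKO library held less S phase RNA, and the difference was concentrated in nucleotide supply and chromatin copying genes. The 40 genes summed to 4127 CPM in 200 WT cells and 3507 in 111 CKO cells, a CKO to WT ratio of 0.850 (0.834 to 0.866). All 40 genes had at least 20 UMIs over both libraries, the minimum for a gene to count as measured. Of them 30 were lower and 10 higher in CKO, beside 46.6% lower of the 10255 genes measured in this class. The median log2 ratio of the 40 (0.5 CPM added) was -0.19, against 0.04 over those 10255 genes. Past 1.5-fold were 4 genes lower and 0 higher, a share of the 40 near the background on the lower side: of all measured genes 10.7% were at least 1.5-fold lower and 18.6% at least 1.5-fold higher.

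The nucleotide supply genes made up the lowest role in progenitor-like cells, with a summed ratio of 0.623 (0.588 to 0.659). Rrm2, the small subunit of ribonucleotide reductase that is made in S phase, was at 261 CPM in WT (250 to 272) and 123 in CKO (113 to 134), a ratio of 0.473 (0.430 to 0.521). Tyms was at 186 in WT and 121 in CKO, a ratio of 0.650 (0.587 to 0.718). Both ratios lay below 1 beyond counting error, the only error these intervals cover. Rrm1, the partner of Rrm2 in the enzyme, was at 134 and 117, a ratio of 0.875 (0.786 to 0.973), so the pair of subunits did not differ by the same factor.

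Histone supply and chromatin copying genes followed at 0.788 (0.759 to 0.818) in progenitor-like cells. Nasp was at 401 CPM in WT and 306 in CKO, a ratio of 0.763 (0.716 to 0.814). Hells was at 193 and 124, a ratio of 0.645 (0.584 to 0.712). Slbp, which binds the stem-loop of histone messages, was at 227 and 175, and Cdca7, which works with Hells, at 111 and 83.0. Uhrf1, which recruits the maintenance DNA methyltransferase to copied DNA, went against its role, at 85.1 in WT and 101 in CKO, a ratio of 1.19 (1.05 to 1.34). The ratios of Casp8ap2, Atad2 and Chaf1b were 0.802, 0.881 and 0.939, the last 2 with intervals that include 1.

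The replication machinery itself was close to the WT level in progenitor-like cells: the 8 helicase loading and activation genes summed to a ratio of 0.939 (0.903 to 0.976) and the 10 polymerase, clamp and fork genes to 0.942 (0.908 to 0.978). Mcm6 was at 158 CPM in WT and 185 in CKO, a ratio of 1.17 (1.07 to 1.28). Pcna, the sliding clamp, was at 125 and 144, a ratio of 1.15 (1.04 to 1.27). These genes were slightly higher in the library whose Rrm2 was lowest. Gmnn, the geminin gene, was at 229 in WT and 190 in CKO (ratio 0.828), and Tipin, a fork protection factor, at 245 and 222 (0.909). The ratios of the other helicase genes ran from 0.728 for Cdc6, the loading factor, through 0.830 for Gins2, 0.831 for Mcm2, 0.963 for Mcm5 and 1.06 for Cdc45 to 1.14 for Mcm4. Those of the other fork genes ran from 0.753 for Fen1, the flap nuclease, through Clspn (0.784), Dscc1 (0.816), Rpa2 (0.946), Rfc2 (0.973), Prim1 (0.985) and Pold3 (0.992) to Pola1 (1.06).

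Repair genes summed to 0.860 (0.801 to 0.924) in progenitor-like cells. Usp1, a deubiquitinase of the clamp, was at 111 CPM in WT and 87.8 in CKO, a ratio of 0.790 (0.699 to 0.891). Rad51ap1 was at 58.1 and 42.3, a ratio of 0.728. Ung, which removes uracil from DNA, was level at 69.3 and 70.3, and the intervals of Exo1, Blm and Brip1 included 1. Of the remaining 5 genes, E2f8, a repressing E2F factor, was at 16.3 in WT and 10.8 in CKO, a ratio of 0.665 (0.466 to 0.934). Dtl, a substrate adaptor for degradation at the clamp, was at 29.7 and 36.5, a ratio of 1.23, and Ubr7 at 30.2 and 37.0, also 1.23. Ccne2, encoding cyclin E2, had a ratio of 0.740 and Wdr76 of 0.978, with intervals that include 1.

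Marker levels differed between the 2 libraries within the progenitor-like class. Early erythroid markers, which count towards its gate, summed to 163 CPM in WT and 23.2 in CKO. Megakaryocyte markers summed to 194 and 484, and endothelium markers to 262 and 442. Globin summed to 659 and 2620, but it was also higher in CKO in stromal-like (338 and 2356) and endothelium-like cells (519 and 2661). A Klf1 sub-gate held 36 WT cells but 1 CKO cell, and those WT cells had 4391 S phase CPM. Within the sub-gate of cells with Mpo and Prtn3, neutrophil granule genes (102 WT and 55 CKO cells), the ratio was 0.888 (0.866 to 0.911), and within cells of neither sub-gate (53 and 55) it was 0.829 (0.801 to 0.858). The median log2 ratios there were -0.17 and -0.23. So the ratio was below 1 in both sub-gates, while the nucleotide supply genes stood at 0.672 in the Mpo and Prtn3 cells. The part of these marker differences in the result was not tested.

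Stromal-like cells, gated by mesenchyme markers and only then divided by smooth muscle and mesothelium markers, showed the widest lower side. The 40 genes summed to 3195 CPM in 243 WT cells and 2458 in 277 CKO cells, a ratio of 0.769 (0.753 to 0.786). Of the 40 measured genes 34 were lower and 6 higher in CKO, beside 51.0% lower of all 11054 measured genes. The median log2 ratio of the 40 was -0.42, against -0.01 over those 11054 genes. Past 1.5-fold were 12 of 40 lower and 0 higher, where all measured genes gave 11.3% lower and 13.8% higher.

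Repair genes (ratio 0.664, 0.614 to 0.718) and chromatin copying genes (0.687, 0.659 to 0.716) were lowest in stromal-like cells. Casp8ap2, a coactivator of histone gene transcription, was at 59.3 CPM in WT (53.1 to 66.0) and 27.9 in CKO (24.0 to 32.2), a ratio of 0.470. Cdca7 was at 58.2 and 30.8 (0.530), and Hells at 127 and 70.2 (0.553). Nasp was at 351 and 247, a ratio of 0.704 (0.659 to 0.752), and Slbp at 165 and 124. Uhrf1 again stood apart from its role, at 58.4 and 59.3. Among repair genes Usp1 was at 101 and 55.0 (0.545), and Rad51ap1 at 54.4 and 34.9 (0.640). Ung was at 62.5 and 46.3, and Exo1, Blm and Brip1 had intervals that include 1. Atad2 and Chaf1b had ratios of 0.706 and 0.739.

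Nucleotide supply stood at 0.703 (0.666 to 0.742) in stromal-like cells, and there the 3 genes were closer together than in progenitor-like cells. Rrm2 was at 223 CPM in WT and 141 in CKO (0.633), Tyms at 189 and 145 (0.768), and Rrm1 at 108 and 79.0 (0.734). The fork genes summed to 0.849 and the helicase genes to 0.889 (0.851 to 0.930). Clspn, a checkpoint mediator at the fork, was at 63.0 and 37.1 (0.589), Fen1 at 67.5 and 44.1 (0.654), Pola1 at 24.8 and 16.4 (0.661) and Cdc6 at 30.0 and 19.2 (0.641). In contrast Pcna was at 82.8 and 96.9, a ratio of 1.17 (1.04 to 1.32), and Mcm5 at 81.9 and 88.7, a ratio of 1.08 (0.956 to 1.22). Mcm4 and Mcm6 had ratios of 1.02 and 1.01, so 3 of the 4 MCM subunits listed were at or near the WT level, with Mcm2 at 0.837. Gmnn and Tipin had ratios of 0.745 and 0.841, and Gins2, Cdc45, Prim1, Pold3, Rfc2, Rpa2 and Dscc1 lay between 0.724 and 0.982. Of the G1/S genes Ccne2 was at 34.3 and 16.2 (0.474), Wdr76 at 10.9 and 6.26 (0.575), E2f8 at 22.3 and 14.9 (0.668), Dtl at 0.925 times and Ubr7 at 1.08 times the WT level.

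The distribution over stromal-like cells was lower in CKO at both quartiles, with a lower quartile of 1075 CPM against 2058 in WT and an upper quartile of 3142 against 4295. The 10th percentile of WT cells was 1406 CPM. Below it lay 99 of 277 CKO cells (35.7%, exact binomial interval 30.1% to 41.7%), and above the WT 90th percentile of 5249 lay 6 (2.17%). The binomial interval takes the cells as independent and the WT limit as exact. Variation between embryos or pools is not covered by it. With each cell thinned to 6000 UMIs, which no kept cell fell short of, 26.4% of CKO cells lay below the thinned WT 10th percentile, beside 16 of 243 WT cells. The level is a range and not a cell type, and 13 WT and 20 CKO cells lay within 10% of the limit. The 99 low CKO cells were also low in G2 and mitosis genes, with a per-cell median of 1834 CPM against 5958 in the other 178, and they were shallower, with 18314 UMIs per cell against 26370. Among them 19 had Xist and 60 had Y-linked UMIs, against 84 and 67 of the other CKO cells. A Smarcc1 UMI was found in 22.2% of the low and 44.9% of the other CKO cells, and in 56.0% and 83.9% of the WT cells below and above the limit. The 25 WT cells below the limit had 2641 G2 and mitosis CPM and 14604 UMIs per cell.

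**Figure D2:**
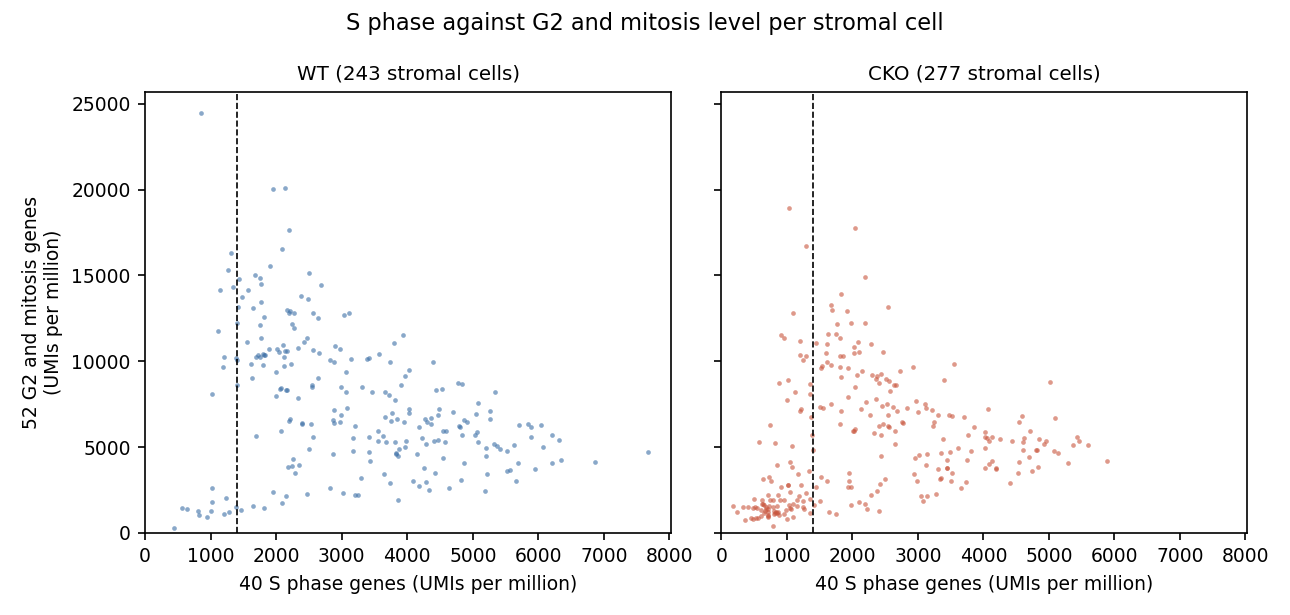
Each point is 1 stromal-like cell, with its summed level of the 40 S phase genes (horizontal, CPM) and of 52 G2 and mitosis genes (vertical, CPM), WT on the left and CKO on the right. The dashed line is the WT 10th percentile of 1406, left of which lie 25 WT and 99 CKO cells, many of the CKO cells low on both axes.

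The lower level was seen in the 4 stromal sub-gates. The ratio was 0.767 in cells with smooth muscle markers (129 WT and 137 CKO), 0.872 in cells with mesothelium markers (22 and 20), 0.841 in cells with both (42 and 58) and 0.638 in cells with neither (50 and 62). The cells with neither were also the shallowest, with 12623 UMIs per WT cell. Smooth muscle markers summed to 4267 CPM in WT and 2717 in CKO over the class, but their per-cell medians were 2063 and 2015. The part of this difference in the result was not tested. Cells with Xist and no Y-linked UMI gave a ratio of 0.894 and cells with Y-linked UMIs and no Xist 0.668. The difference between those 2 sets of embryos was not tested.

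Erythroid cells went the other way. These cells remained after a sort meant to remove Ter119+ red cells. In the class of lower globin share the 40 genes summed to 2064 CPM in 64 WT cells and 2927 in 155 CKO cells, a ratio of 1.42 (1.37 to 1.47). In globin-rich cells they summed to 1789 in 90 WT and 2191 in 97 CKO cells, a ratio of 1.22 (1.18 to 1.27). The median log2 ratios were 0.46 and 0.22, against 0.13 and 0.04 over 8006 and 7240 measured genes. In the first class 33 of 40 genes were higher in CKO, and in the second 31 of 40, beside 60.9% and 52.8% of measured genes. Past 1.5-fold were 18 higher and 0 lower in the first, beside 22.2% of measured genes higher and 9.16% lower, and 14 higher and 0 lower in the second, beside 19.3% and 13.2%.

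Helicase genes led in the erythroid cells of lower globin share, with a summed ratio of 1.68 (1.56 to 1.80). Mcm5 was at 56.1 CPM in WT (46.3 to 67.3) and 145 in CKO (136 to 155), a ratio of 2.58. Mcm6 was at 69.7 and 164 (2.35), Mcm4 at 27.8 and 58.0 (2.09) and Cdc45, which activates the helicase, at 16.1 and 44.3 (2.76). Their intervals cover counting error only, and how many of all genes measured in this class lay as far apart was not counted. Mcm2 differed less, at 76.1 and 97.2 (1.28), as did Gmnn at 137 and 169 (1.23), Gins2 (1.27) and Cdc6 (1.15). In globin-rich cells the helicase ratio was 1.41 (1.32 to 1.51), with Mcm5 at 55.9 and 111 (1.99), Cdc45 at 17.2 and 38.8 (2.26), Mcm4 at 1.75, Gins2 at 1.74 and Mcm6 at 1.53 times the WT level, but Mcm2 at 1.13, Gmnn at 1.06 and Cdc6 at 0.870.

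The clamp gave the highest ratio of any of the 40 in erythroid cells of lower globin share. Pcna was at 63.9 CPM in WT (53.4 to 75.8) and 186 in CKO (175 to 197), a ratio of 2.91 (2.42 to 3.51), and in globin-rich cells at 71.6 and 145, a ratio of 2.03 (1.74 to 2.38). Pold3, a polymerase delta subunit, was at 25.4 and 53.0 (2.09) in the lower-globin class and at 1.59 in the globin-rich class. Prim1, the primase, had ratios of 1.63 and 1.54, and Dscc1, a clamp loader subunit, 1.90 and 1.68. Pola1 was at 1.57 and 1.03, Rpa2 at 1.46 and 1.14 and Tipin at 1.24 and 1.07. Fen1 did not share the difference, at 110 and 105 in the lower-globin class (0.957, 0.821 to 1.12) and 0.940 in the globin-rich class. Rfc2 (1.11 and 0.948) and Clspn (1.02 and 1.17) had intervals that include 1 in both.

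Nucleotide supply genes, the lowest role in progenitor-like cells, differed least in the lower-globin erythroid class, with ratios of 1.13 (1.04 to 1.23) there and 1.10 (1.01 to 1.20) in globin-rich cells. Tyms was at 152 and 144 CPM in lower-globin cells, a ratio of 0.949 (0.833 to 1.08), and at 148 and 131 in globin-rich cells, a ratio of 0.884 (0.776 to 1.01). Rrm2 was at 112 and 145 (1.29) and then at 75.7 and 103 (1.35), and Rrm1 had ratios of 1.24 and 1.26.

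Chromatin copying and repair genes were mixed in erythroid cells. Chaf1b, a subunit of the histone chaperone CAF-1, was at 10.7 and 27.9 CPM in lower-globin cells (2.60, 1.66 to 4.26) and at 1.52 times the WT level, on under 100 UMIs, in globin-rich cells. Uhrf1 was at 31.7 and 60.8 (1.92) and then at 26.2 and 42.2 (1.61). Nasp was at 213 and 291 (1.37) in lower-globin cells but level in globin-rich cells, at 175 and 172. Hells was the reverse, at 1.19 times the WT level in lower-globin cells and 1.93 in globin-rich cells (11.9 and 23.1). Slbp had ratios of 1.37 and 1.16. Casp8ap2 (0.770 and 0.796), Cdca7 (0.905 and 0.810) and Atad2 (0.864 and 1.03) had intervals that include 1. Ung was at 12.2 and 30.0 in lower-globin cells (ratio 2.46) and Rad51ap1 at 30.7 and 49.6 (1.61). In globin-rich cells Ung and Rad51ap1 had ratios of 1.19 and 1.32. Usp1, at 1.27 and 1.06, and Blm, at 0.794 and 0.753, were not past the fold, while Exo1 (1.62) and Brip1 (1.94) were past it in lower-globin cells with intervals that include 1. Of the G1/S genes, Dtl was at 17.6 and 29.2 in lower-globin cells (1.66), with a log2 ratio of -0.71 (-2.09 to 0.57) in Y-positive cells alone, and Ubr7 had a ratio of 1.91 in globin-rich cells. E2f8 had ratios of 2.31 and 2.36 and Ccne2 of 1.63 and 1.06, each on under 100 UMIs, and Wdr76 stood at 0.974 and 1.06.

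Over the 3 ranges of globin share compared, the erythroid difference was smaller in cells with more globin. Cells with a globin share of 25% to 30% gave a ratio of 1.38 (1.32 to 1.43), those of 30% to 35% 1.27 (1.21 to 1.32) and those over 35% 1.15 (1.08 to 1.21). The WT library held 5 cells below 20% and 13 from 20% to 25%, too few to compare. Their levels were 2693 and 2226 CPM, against 3039 and 3162 in CKO. With globin UMIs left out of the total, the WT level hardly moved over the same 3 ranges (2731, 2735 and 2759), while the CKO level went from 3747 through 3428 to 3135. In the lower-globin class 54.8% of CKO cells lay above the WT 90th percentile of 2738 CPM (43.9% when thinned). In the globin-rich class 25.8% lay above the WT 90th percentile of that class (28.9% when thinned). Cells with Xist and no Y-linked UMI were 38 of 64 in WT and 125 of 155 in CKO in the lower-globin class. Within such cells the ratio was 1.51, and within cells with Y-linked UMIs and no Xist 1.25. Median depth there was 26601 UMIs per WT cell and 36371 per CKO cell, and with each cell thinned to 6000 UMIs the ratio was 1.495. The globin limit crossed many cells, since 45 WT and 63 CKO cells had a globin share of 28% to 32%.

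**Figure D3:**
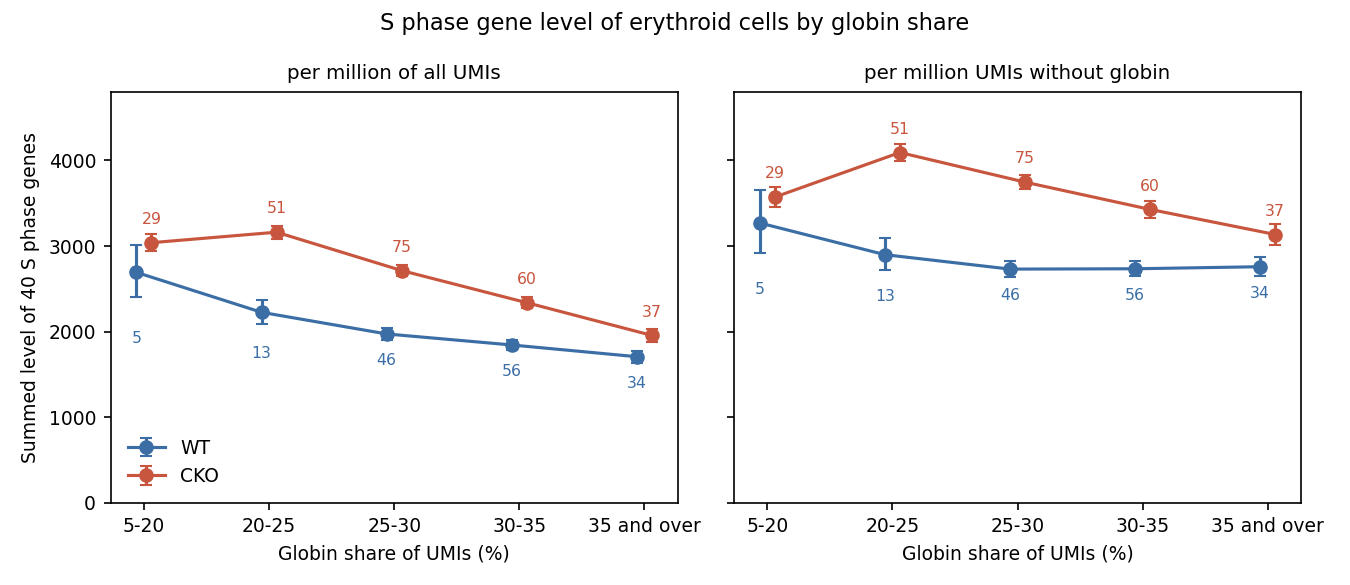
Summed level of the 40 S phase genes in erythroid cells by globin share, in CPM of all UMIs (left) and of UMIs without globin (right), with exact Poisson 95% intervals and the number of cells beside each point. CKO (red) lies above WT (blue) in each range, with overlapping intervals at 5% to 20% (2693 in 5 WT cells against 3039 on the left scale). From 25% the gap narrows, from 1973 against 2714 at 25% to 30% to 1707 against 1956 at 35% and over on the left scale.

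Endothelium-like cells showed no difference beyond counting error in the sum: 2593 CPM in 48 WT cells and 2763 in 28 CKO cells, a ratio of 1.07 (0.999 to 1.14). Of the 34 members measured 22 were higher and 12 lower in CKO, beside 47.3% higher of all 6456 measured genes. The median log2 ratio of the members was 0.10, against -0.04 over those 6456 genes. Past 1.5-fold were 4 higher and 2 lower, beside 12.9% and 17.1% of measured genes. Helicase genes again stood highest of the larger roles, at 1.38 (1.20 to 1.58), with Mcm5 at 89.6 and 140 (1.56, 1.12 to 2.17) and Mcm6 at 91.1 and 144 (1.58, 1.14 to 2.19). In Xist-positive cells alone the log2 ratio of Mcm6 turned to -0.042 (-0.74 to 0.68). The others past the fold, Cdc6, Ccne2, Pola1 and Casp8ap2, had under 100 UMIs and intervals that include 1, and Cdc45, Dscc1, Exo1, Blm, Brip1 and E2f8 were not measured. WT cells were shallower, at a median of 12461 UMIs against 22538, and the mean of per-cell levels gave a ratio of 0.959. Classes with under 20 cells in a library are given as levels: macrophage-like cells 4120 in WT and 3167 in CKO (14 cells), megakaryocyte-like 4214 (9 cells) and 3038, progenitor and endothelium double-gated cells 3637 (14 cells) and 3036, and endoderm-like 2234 and 2667 (2 cells).

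Set side by side, the ratio of a gene differed in size across classes. Mcm5, for which the printed promoter stretch holds 3 E2F core matches, had ratios of 0.963, 1.08, 1.56, 2.58 and 1.99 in progenitor-like, stromal-like, endothelium-like, lower-globin and globin-rich cells. Mcm6, with 4 such matches, overlapping ones counted each, had 1.17, 1.01, 1.58, 2.35 and 1.53 in the same order. The third turned in Xist-positive cells, as given above. Pcna, with 0 such matches in its 200 bases, had 1.15, 1.17, 1.44, 2.91 and 2.03. Casp8ap2, with 3, had 0.802, 0.470, 0.573, 0.770 and 0.796, below 1 in each of the 5. Pola1, whose stretch also holds 3 E2F core matches, had 1.06, 0.661, 0.382, 1.57 and 1.03, the third on 15 WT and 6 CKO UMIs. Rrm1, with 1 such match, had 0.875, 0.734, 0.831, 1.24 and 1.26, and Nasp, with none, 0.763, 0.704, 0.989, 1.37 and 0.982.

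**Figure D4:**
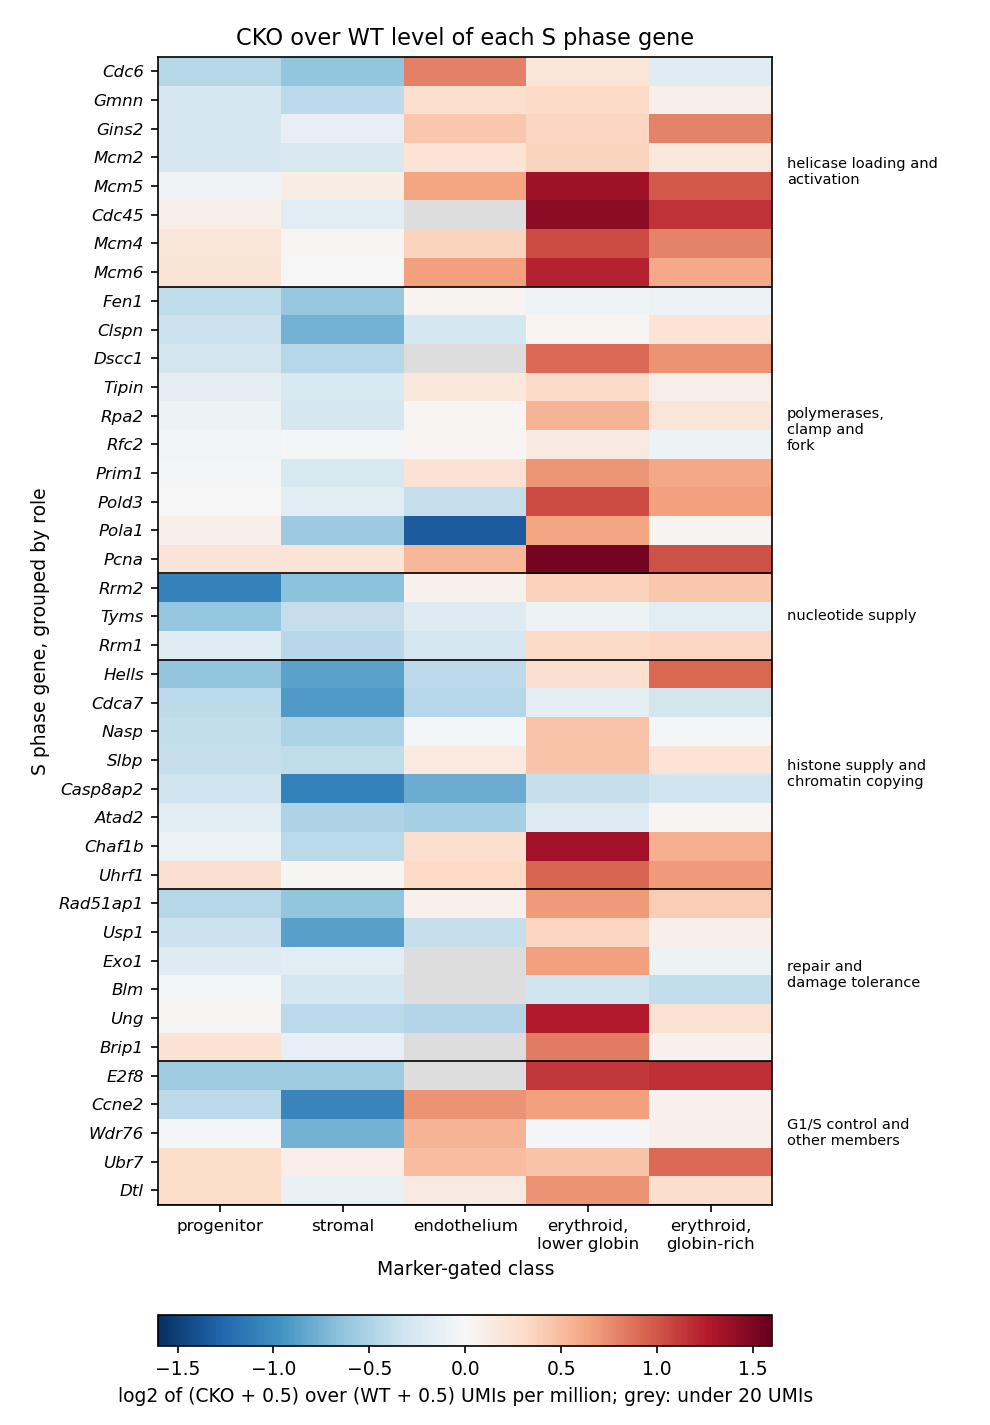
Log2 ratio of the CKO over the WT level (0.5 CPM added to each) of the 40 S phase genes, in rows grouped by role, for 5 marker-gated classes, with red higher and blue lower in CKO and grey for fewer than 20 UMIs. The progenitor-like and stromal-like columns are mostly blue (30 and 34 of 40 lower) and both erythroid columns mostly red (33 and 31 of 40 higher). Of all measured genes 46.6% and 51.0% were lower in the first pair of columns, and 60.9% and 52.8% higher in the erythroid pair.

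Replication genes outside the list went the same way with smaller medians in 3 of the 4 classes that differed. The 53 others, among them the remaining origin recognition, MCM and polymerase subunits, had median log2 ratios of -0.15 in progenitor-like (20 higher and 33 lower of 53 measured), -0.24 in stromal-like (13 and 38 of 51), 0.34 in lower-globin (42 and 9 of 51), 0.28 in globin-rich (35 and 15 of 50) and 0.08 in endothelium-like cells (24 and 19 of 43). Dut, which keeps uracil out of the nucleotide pool, was at 560 CPM in WT and 381 in CKO progenitor-like cells (0.679). Orc5, an origin recognition subunit, was higher in CKO in each of the 5 classes, at 151 and 243 in progenitor-like cells (1.61), 134 and 160 in stromal-like cells (1.19, 1.09 to 1.31), 113 and 209 in endothelium-like cells (1.85), 154 and 257 in lower-globin cells (1.67) and 146 and 235 in globin-rich cells (1.61). Ccne1, encoding cyclin E1, was at 33.0 and 18.6 in progenitor-like (0.564) and 37.8 and 20.1 in stromal-like cells (0.532). Rnaseh2c, an RNase H2 subunit, and Mcm3 were nearer to the WT level in progenitor-like cells (ratios 1.08 and 0.890), and Wdhd1, a fork factor, was at 11.9 and 21.1 (1.77). In stromal-like cells E2f7 and Gins3 had ratios of 0.488 and 0.501 and Mcm10 1.82, with Dut, Orc6 and Lig1, a DNA ligase, at 0.753, 0.738 and 0.687. In endothelium-like cells Dut, Orc6 and Mcm3 had ratios of 1.07, 0.725 and 0.78. Tk1, thymidine kinase, was at 27.8 and 69.0 in lower-globin cells (2.48), and Ccna2, encoding cyclin A2, at 109 and 195 in globin-rich cells (1.79). Pole2 and Timeless had ratios of 2.11 and 1.94 in lower-globin cells, and Pold1 and Lig1 2.46 and 1.79 in globin-rich cells, where E2f2 stood at 0.628. Pole3 and Rnaseh2c lay between 0.824 and 1.09 in both erythroid classes.

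Inhibitors of the cell cycle were few and mostly low. Cdkn1a, the p21 inhibitor, was at 29.8 CPM in WT and 109 in CKO progenitor-like cells, a ratio of 3.67, and at 12.7 and 24.3 in stromal-like cells (1.92). Its ratio was 10.7 (4.32 to 34.2) in endothelium-like cells, on 5 WT and 56 CKO UMIs, 1.28 (0.828 to 2.03) in lower-globin and 0.571 (0.365 to 0.880) in globin-rich cells. Cdkn1c, the p57 inhibitor, was at 1666 in WT and 177 in CKO endothelium-like cells (0.106), a class in which the interval of the S phase ratio included 1, and at 619 and 473 in stromal-like cells. Cdkn2d, the p19 inhibitor, had ratios of 1.26 in progenitor-like, 0.535 in stromal-like and 2.27 in lower-globin cells. The 52 G2 and mitosis genes went with the S phase genes in 4 classes, with median log2 ratios of -0.23 in progenitor-like, -0.37 in stromal-like, 0.36 in lower-globin and 0.19 in globin-rich cells. In endothelium-like cells theirs was -0.11 against 0.10 for the S phase genes. Their summed level in progenitor-like cells was 8162 in WT and 6653 in CKO. Hmgb2, a chromatin protein, was at 1490 and 1057 in progenitor-like and 628 and 888 in lower-globin cells, and Cks2, which binds cyclin-dependent kinases, had ratios of 0.922 and 1.25 there. Tubb4b, a tubulin, stood at 0.540 and Aurka, a mitotic kinase, at 0.640 in progenitor-like cells, and the kinesins Kif23 and Kif20b at 0.517 and 0.531 in stromal-like cells. Psrc1 went the other way in progenitor-like cells, with a ratio of 1.62 (1.12 to 2.33). Ctcf, a chromatin insulator protein that standard G2 and mitosis lists include, had ratios of 0.606 in progenitor-like, 0.429 in stromal-like, 0.303 in endothelium-like and 0.628 in globin-rich cells. Ndc80, a kinetochore subunit, had ratios of 2.11 and 2.16 in lower-globin and globin-rich cells and Hjurp 2.33 and 1.87, with Mki67 at 1.96 in the latter. Nek2 had a ratio of 2.08 in lower-globin cells. Of 51 genes of this list measured in each of these classes, 40 and 34 were higher in CKO, beside 60.9% and 52.8% of all measured genes. The other 11 and 17 were lower, among them Cks1b (0.746 and 0.695) and, in globin-rich cells, Rangap1 (0.640). In endothelium-like cells Hmmr and Aurkb stood at 0.499 and 0.563 and Anp32e, Rangap1 and Cenpa at 1.67, 1.55 and 1.52.

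Across cells of a class the members varied together in progenitor-like and stromal-like cells, with lower medians in WT erythroid cells. In WT progenitor-like cells (200 cells, 39 members with at least 0.5 UMIs per cell) the median Spearman correlation of a member with the sum of the other members was 0.33, against 0.00 over 5859 other genes, and in WT stromal-like cells it was 0.44 against 0.02. In CKO the values were 0.45 and 0.51 against 0.05 and 0.06. In erythroid cells of lower globin share the medians were 0.22 in WT, where 28 of 32 members were positive and the 95th percentile of other genes was 0.25, and 0.35 in CKO, and in globin-rich cells 0.26 and 0.30. Rrm2 had the highest correlation in progenitor-like and stromal-like cells of both libraries, from 0.62 to 0.78, and Blm the lowest in progenitor-like cells of both. The correlation of the S phase sum with the G2 and mitosis sum differed in sign and size between classes. It was -0.50 in WT and -0.13 in CKO progenitor-like cells, -0.33 and 0.36 in stromal-like cells, -0.057 and -0.31 in lower-globin and -0.39 and -0.33 in globin-rich cells. These points share library and depth, and the S phase sum went with UMIs per cell at 0.40 in CKO stromal-like cells against 0.06 in WT. Of genes outside the list, the most alike over WT progenitor-like cells by Pearson correlation of log levels were Dek (0.42), Mcm3 (0.42), Ccne1 (0.42) and Hat1 (0.36) among 5859 genes.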

How the data were processed

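The authors deposited UMI counts per gene and barcode for each library. Cell Ranger, Seurat and the build GRCm38 are named in the submitters' processing notes, with no versions or roles. The members, gene lists and markers were chosen with earlier results of these data known, and the gate thresholds after the data were seen. Barcodes needed 500 genes and at most 10% mitochondrial UMIs (28 WT and 18 CKO barcodes exceeded it). Scrublet in scanpy 1.11.5 (expected rate 1%) called 3 WT and 6 CKO doublets (0.368% and 0.694%), which were left out. The libraries shared 1 barcode. Counts were summed over the cells of a class and expressed as CPM, counts-per-million of the UMIs of that class. Levels carry exact Poisson 95% intervals and ratios conditional exact binomial ones. These cover counting error only, and no test between genotypes was made. Members were named as described by role: the most abundant of each role, those past 1.5-fold with at least 100 UMIs, and those going against the list. Genes of the other lists were named mainly from the 3 most abundant and those farthest past 1.5-fold in each direction. Not all such genes were named in each class. The closest other genes were ranked over WT progenitor-like cells. Ratio and interval code was tested on simulated counts. Doublet, depth, scaling, gate, sex and Smarcc1 alternatives were run. The markers Ahsp, Hbb-b1, Hbb-b2 and Adgre1 were not used here.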

Additional observations from a re-analysis of the deposited data

Results flagged for a closer look

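The same contrast, CKO over WT, gave opposite directions in different cell classes. The summed level of the 40 S phase genes had a ratio of 0.850 in progenitor-like and 0.769 in stromal-like cells, and of 1.42 in erythroid cells of lower globin share and 1.22 in globin-rich erythroid cells. The difference between the classes was not tested, since each rests on 1 library per genotype.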

How the results depend on the processing

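No paired analysis was possible because each genotype has 1 library and no result comes from a test. Over the alternatives run, the CKO to WT direction of the summed level and of the list median was kept in progenitor-like, stromal-like and both erythroid classes. The 4 of 78 list medians on the other side of 0 were from endothelium-like cells, where all alternatives together ran from -0.08 to 0.15. The other alternatives left 74 of 78 list medians, 42 of 63 summed ratios and 67 of 96 summed levels within counting or gene spread of the value reported. Summed ratios that moved were as follows. In progenitor-like cells the ratio was 0.882 with globin, ribosomal protein and mitochondrial UMIs left out of the total, 0.813 as the mean of per-cell levels, 0.794 with CKO cells lacking a Smarcc1 UMI, 0.901 in Xist-positive cells, and 0.820 with the double-gated cells counted as progenitors, an alternative chosen after seeing the data. In stromal-like cells it was 0.702 as the mean of per-cell levels, 0.669 thinned, 0.745 without Smarcc1 UMIs, 0.894 in Xist-positive and 0.668 in Y-positive cells. In endothelium-like cells it was 0.959 as the mean of per-cell levels, 0.996 thinned, 0.991 without Smarcc1 UMIs and 0.995 in Y-positive cells. In erythroid cells of lower globin share it was 1.37 without globin UMIs, 1.495 thinned, 1.51 Xist-positive and 1.25 Y-positive, and in globin-rich cells 1.31 thinned, 1.16 Xist-positive and 1.31 Y-positive. The stromal-like list median was -0.52 as the mean of per-cell levels, -0.57 thinned, -0.17 in Xist-positive and -0.69 in Y-positive cells, and the median of other replication genes in endothelium-like cells was -0.18 with a minimum of 100 UMIs. Summed levels moved by construction with the denominator. Without globin, ribosomal protein and mitochondrial UMIs they were, for WT and CKO, 6041 and 5325 in progenitor-like, 3539 and 3860 in endothelium-like, 4422 and 3467 in stromal-like, 4503 and 6298 in lower-globin and 4529 and 5578 in globin-rich cells; without globin alone they were 2800 and 3827 in lower-globin and 2744 and 3321 in globin-rich cells. As the mean of per-cell levels they were 4199 and 3412 in progenitor-like cells, 2773 in WT endothelium-like and 2239 in CKO stromal-like cells. Thinned, they were 3446 in CKO progenitor-like, 2767 in WT endothelium-like, 3263 and 2184 in stromal-like, 1982 in WT lower-globin, and 1728 and 2256 in globin-rich cells. Markers with 1 UMI gave 4059 in WT progenitor-like cells, counting double-gated cells gave 3356 in CKO progenitors, and erythroid limits of 10% and 40% gave 1897 and 2695 in the lower-globin class. Among named members, Mcm6 in endothelium-like cells had a log2 ratio of -0.042 in Xist-positive cells, and Dtl in lower-globin cells one of -0.71 in Y-positive cells; the cause was not tested. Endothelium-like cells with 1-UMI markers and globin-rich cells from 40% left under 10 cells in a library and gave no value. In endothelium-like cells 6 of 40 genes had under 20 UMIs over both libraries and were not compared.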
